A study of Arabidopsis thaliana with 32 samples.

Results

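The Arabidopsis mitochondrial genome was represented in the count tables by 152 rows, those whose identifier starts with ATMG, of 37336 rows in all. A row was used in a tissue where it held at least 10 counts over the 16 libraries of that tissue. By this rule 25 rows were used in shoots and 29 in roots, and the 25 shoot rows were all among the 29. Another 25 rows held some counts but stayed under the minimum in both tissues, and 98 rows had no count in any of the 32 libraries. The rows just inside the minimum were ATMG01220 in shoots, with 15 counts, and ATMG00510, ATMG00380 and ATMG00665 in roots, with 10 counts each. The rows just outside were ATMG00510 in shoots, with 8 counts, and ATMG00580 in roots, with 9.

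The libraries came from WT plants (Col-0) and from the quadruple mutant q-lsu-KO, a line of the same background in which all 4 LSU (RESPONSE TO LOW SULFUR) genes carry deletions. Seedlings grew for 10 days with normal sulfur, then for 5 days either with 1 mM sulfate ([nS]) or on medium whose magnesium sulfate had been exchanged for magnesium chloride ([dS]), under short days with 8 h of light, so that all were 15 days old at harvest. Shoots and roots were collected apart, each sample pooling at least 10 seedlings, which gave 8 groups of 4 libraries. Each of the 4 sequencing pools held 1 tissue at 1 sulfur condition with both genotypes, so that sulfur, or tissue, cannot be told apart from the pool, whereas genotypes were compared within a pool. The study calls the 4 replicates of a group biological replicates but does not say whether they were separate cultures. A p-value here reflects variation among these libraries only.

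Library totals ran from 893225 to 2857129 counts. All 5 markers of green tissue and all 8 root markers separated the tissues as labelled: the green markers summed to between 30063 and 44754 CPM (counts per 1e6 counts of the library) in shoots and to between 44.3 and 236 CPM in roots.

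Plant mitochondria keep a small genome of their own that encodes ribosomal and transfer RNAs, some ribosomal proteins, cytochrome c maturation factors and core subunits of the respiratory chain and of ATP synthase. Most mitochondrial proteins, and the phage-type RNA polymerases that transcribe this genome, are encoded in the nucleus. In plant organelles a poly(A) tail marks RNA for degradation, in contrast to the stable tails of cytosolic mRNA, and a library primed with oligo(dT) therefore samples organelle RNA through its tailed molecules or through internal runs of A. A count here is a 3′ tag, not a level per length, so levels were compared between samples for 1 gene and not read as relative abundance of different transcripts.

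A second feature of this genome in Arabidopsis may bear on which rows hold counts, which was not tested. A long copy of a large part of it lies in the nucleus on chromosome 2. In the RefSeq TAIR10.1 assembly the mitochondrial genome is 367808 bases long, and 70.2% of its windows of 55 bases, the length of the mRNA read, also occurred without a mismatch on a nuclear chromosome, nearly all of them on chromosome 2. The plastid genome shared 0.286% of the windows, and 8.49% were repeated within the mitochondrial genome. Reads had been aligned to TAIR10, whose mitochondrial sequence was not used here. Of the 33 protein-coding genes annotated on the RefSeq mitochondrial genome, 16 had a nuclear copy of every window, 21 had one for over 90% of the windows, and 5 (atp4, ccmB, cox1, nad4L and nad9) had none. Of the 3 ribosomal RNA genes, 2 had no copied window, and rrn18 had a copy of 0.106% of its windows.

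The stretches printed here show what such a copy means for a 55-base read. The last 55 bases of the coding sequence of atp1, a catalytic-head subunit of ATP synthase, lie on the minus strand of the mitochondrial genome at positions 67098 to 67152, and the same bases lie on the plus strand at chr2:3363974-3364028, inside the nuclear gene AT2G07698. A stretch of rpl2, a protein of the large ribosomal subunit (minus strand, positions 221777 to 221831), differs from its copy at chr2:3411959-3412013, inside AT2G07715, by 1 base, shown in capitals, G28A counted from the 5′ end. The end of cox1, a core subunit of cytochrome c oxidase (minus strand, positions 114762 to 114816), had no nuclear copy, and the longest part of it found on a nuclear chromosome was 37 bases.
atp1, mitochondrial genome: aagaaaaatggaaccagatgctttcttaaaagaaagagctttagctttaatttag
AT2G07698, chromosome 2: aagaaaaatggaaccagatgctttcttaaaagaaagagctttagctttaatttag
rpl2, mitochondrial genome: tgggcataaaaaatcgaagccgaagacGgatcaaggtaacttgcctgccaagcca
AT2G07715, chromosome 2: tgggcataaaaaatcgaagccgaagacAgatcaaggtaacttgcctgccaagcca
cox1, mitochondrial genome: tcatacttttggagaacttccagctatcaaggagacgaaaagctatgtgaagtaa

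Mitochondrial rows that the reference ties to the chromosome 2 copy were almost empty. The notes of nuclear genes in the reference name 53 of the 152 rows as the closest match of, or the parent of a pseudogene on, chromosome 2. Of these 53 rows 43 had no count, 1 was used, and together they held 63 counts over 32 libraries. The 99 rows named in no note held 508076 counts, with 28 rows used and 55 with none. The 1 used row with a chromosome 2 partner was ATMG01220, with 32 counts, whose partner AT2G07798 is annotated as an unknown protein. The nuclear partners were nearly as empty: of their 55 rows 42 had no count, and all 55 held 246 counts.

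Among the named rows, 19 could be tied to a gene of the RefSeq mitochondrial genome through the chromosome 2 gene that holds its copy, and 16 of the 19 had no count. The row for atp1, ATMG01190, had 0 counts and its partner AT2G07698 had 90. The row for cob, the cytochrome b of complex III (ATMG00220), had 0 counts and AT2G07727 had 82. The row for cox3, a core subunit of cytochrome c oxidase (ATMG00730), had 0 counts and AT2G07687 had 10. The rpl2 row, ATMG00560, had 9 counts, the most of the 19, and AT2G07715 had 26. The core genes tied to these rows were therefore hardly measured by them, and nothing can be said from them of atp1, cob or cox3 transcripts. The tie of cox2, to ATMG01280 with 0 counts, is weak, since 16.6% of its windows were copied. Genes without a tie, cox1 among them, are not covered by this, and rows that held counts were not tied to gene names here. How reads with several equally good alignments had been treated is not given in the sources used here, and its part in the empty rows was not tested.

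**Figure D1:**
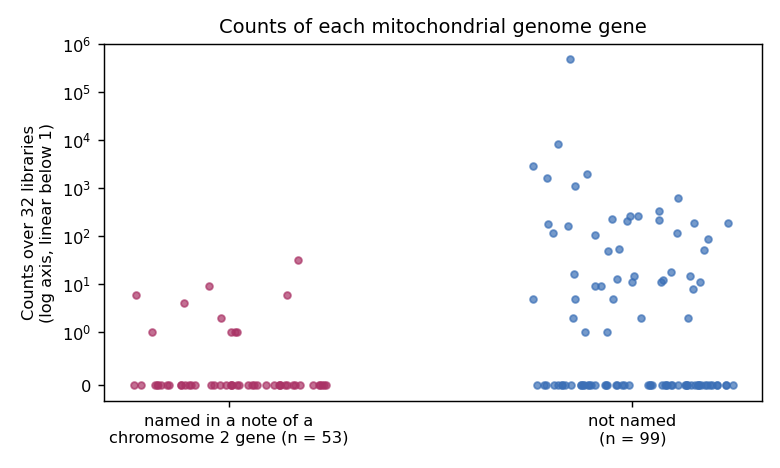
Counts summed over 32 libraries (log axis, linear below 1) for each of the 152 mitochondrial genome genes, 1 point a gene, split by whether a note of a chromosome 2 gene names it. The 53 named genes reach at most 32 counts, and the genes that carry nearly all counts are among the 99 not named.

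The files and the reference gave no name to the rows that did hold counts, so they are described by identifier. Of 508139 mitochondrial counts, 61950 were in shoots and 446189 in roots. ATMG00020 held 488572 of them, between 88.3% and 93.1% of the mitochondrial counts of a shoot library and between 96.1% and 97.5% of those of a root library. ATMG01390 followed with 8244 counts, then ATMG00090 with 2935, ATMG00080 with 1994, ATMG01360 with 1650 and ATMG01380 with 1094. The next were ATMG00660, ATMG00640, ATMG01370, ATMG09740, ATMG00516, ATMG00690, ATMG00070, ATMG01170, ATMG00160 and ATMG00030, with between 180 and 629 counts each. Of all 152 rows, 13 were counted in every library. Any statement on the total is thus a statement on ATMG00020, and the other rows were also summed without it.

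The mitochondrial share of the library total was about an order of magnitude higher in roots than in shoots, and in shoots it was higher with [dS] than with [nS]. In WT shoots the share was 0.148%, 0.140%, 0.129% and 0.148% with [nS] and 0.201%, 0.189%, 0.275% and 0.254% with [dS]. In q-lsu-KO shoots it was 0.143%, 0.142%, 0.140% and 0.145% with [nS] and 0.293%, 0.271%, 0.288% and 0.264% with [dS]. In both genotypes every [dS] shoot library lay above every [nS] shoot library. The mean shares of shoots were 0.141% ± 0.00896 and 0.230% ± 0.0415 in WT and 0.142% ± 0.00233 and 0.279% ± 0.0140 in q-lsu-KO (SD, n = 4), ratios of 1.62 and 1.96.

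In WT roots the share was 1.81%, 1.27%, 1.29% and 1.92% with [nS] and 2.07%, 1.85%, 1.84% and 1.97% with [dS]. In q-lsu-KO roots it was 2.07%, 1.95%, 2.37% and 2.23% with [nS] and 1.93%, 2.16%, 2.25% and 2.18% with [dS]. The sulfur groups of roots overlapped in both genotypes. Their means were 1.58% ± 0.343 and 1.93% ± 0.107 in WT and 2.16% ± 0.183 and 2.13% ± 0.140 in q-lsu-KO (SD, n = 4). The 4 WT root libraries with [nS] split into a pair near 1.3% and a pair above 1.8%, and all 4 lay below the lowest q-lsu-KO library with [nS]. The root share was 11.1 times the shoot share in WT with [nS], 8.41 times with [dS], 15.2 times in q-lsu-KO with [nS] and 7.63 times with [dS]. Shares are given as descriptions, with no test. In bulk tissue, fewer mitochondria-rich cells and less mitochondrial RNA per cell cannot be told apart.

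Without ATMG00020 the remaining rows summed to 139 ± 8.76 CPM in WT shoots with [nS] and 192 ± 33.4 with [dS], and to 148 ± 15.6 and 268 ± 28.8 in q-lsu-KO shoots (SD, n = 4), with no overlap between sulfur groups. In roots the same sum was 573 ± 122 and 616 ± 44.4 CPM in WT and 642 ± 63.7 and 581 ± 59.2 CPM in q-lsu-KO, with overlap in both. The ratio of roots to shoots was between 2.17 and 4.33 once ATMG00020 was left out. Genes of the plastid genome, the other organelle, took 4.33% to 5.60% of shoot libraries and 0.236% to 0.405% of root libraries, so that the organelles ranked the tissues in opposite order.

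**Figure D2:**
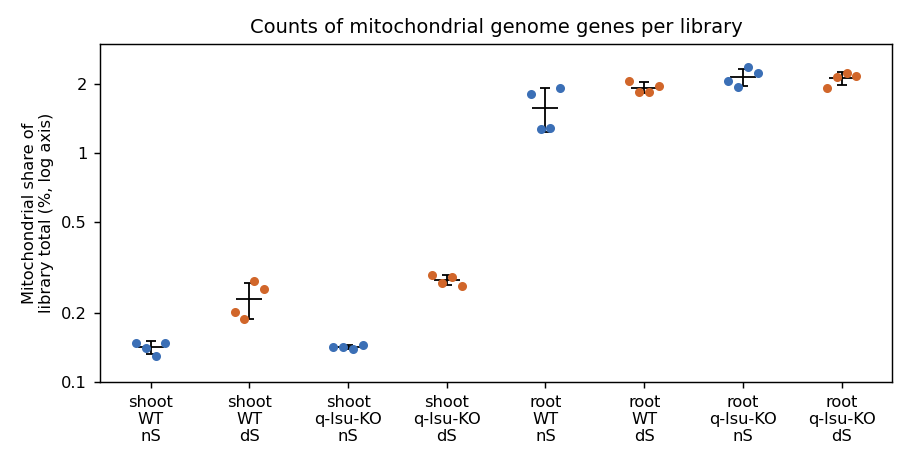
Mitochondrial share of the library total (percent, log axis) in each library, by group. Points are libraries, blue for [nS] and orange for [dS], the bar and whiskers are mean ± SD (n = 4), and the shoot [dS] libraries lie above the shoot [nS] libraries in both genotypes.

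Single genes were tested in edgeR over all genes of a tissue, and a gene was called where its p, adjusted after Benjamini and Hochberg, was under 0.05 and its change over 1.5-fold. Of the mitochondrial rows 9 had enough counts to enter the shoot fit, 13 the root fit and 15 the fit of all 32 libraries. Log2 fold changes are given with their standard error.

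In WT shoots 2 of 9 mitochondrial genes rose with [dS] and none fell, where 6.18% of all genes tested rose and 5.24% fell. ATMG00020 was at 1332, 1272, 1158 and 1341 CPM with [nS] and at 1834, 1726, 2564 and 2299 CPM with [dS]. All [dS] libraries lay above all [nS] libraries, and the rise was 0.65 ± 0.10 on the log2 scale (adjusted p = 9.7e-05, edgeR). Without replicate 3 of the WT shoots with [dS], the highest of the 4, the rise was 0.55 and the gene dropped under the fold threshold at an adjusted p of 1.6e-06. ATMG01390 was at 26.6, 28.0, 28.5 and 21.3 CPM with [nS] and at 48.0, 38.0, 45.2 and 64.1 CPM with [dS], again without overlap. It rose by 0.84 ± 0.14 (adjusted p = 1.2e-05, edgeR). The other 7 genes were not called. ATMG00090 (0.52 ± 0.21) and ATMG00080 (0.43 ± 0.19) had positive values with adjusted p of 0.076 and 0.11, and ATMG01360, ATMG01170, ATMG01370 and ATMG01380 had values between -0.55 and -0.07. The median over the 9 genes was 0.43, beside 0.02 over all genes tested.

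In q-lsu-KO shoots 5 of the 9 genes rose with [dS] and none fell, where 6.62% of all genes tested rose and 5.44% fell. ATMG00020 was at 1270, 1250, 1265 and 1312 CPM with [nS] and at 2640, 2456, 2592 and 2404 CPM with [dS], a narrow spread within each group and no overlap between them. Its rise was 0.91 ± 0.10 (adjusted p = 4.0e-06, edgeR). ATMG01390 was at 29.9, 29.8, 28.7 and 29.4 CPM with [nS] and at 66.8, 60.9, 62.9 and 52.3 CPM with [dS], and rose by 0.97 ± 0.15 (adjusted p = 2.0e-06, edgeR).

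The other 3 genes that rose there lay between 12 and 80 CPM in q-lsu-KO shoots. ATMG00080 was at 27.4, 18.5, 17.8 and 17.2 CPM with [nS] and at 48.5, 42.4, 50.2 and 27.6 CPM with [dS]. The lowest [dS] library thus lay next to the highest [nS] library, and the rise was 0.96 ± 0.21 (adjusted p = 0.0010, edgeR). ATMG00090 was at 25.5, 36.2, 32.1 and 27.0 CPM with [nS] and at 79.8, 43.9, 64.8 and 45.3 CPM with [dS], without overlap, and rose by 0.86 ± 0.21 (adjusted p = 0.0054, edgeR). ATMG01360 was at 21.6, 23.3, 14.9 and 12.3 CPM with [nS] and at 25.9, 33.9, 26.5 and 42.9 CPM with [dS], with the smallest rise of the 5, 0.79 ± 0.24 (adjusted p = 0.020, edgeR). That call was lost without replicate 2 or replicate 4 of the q-lsu-KO shoots with [dS], or without replicate 3 or replicate 4 of those with [nS], where the adjusted p was between 0.052 and 0.088. ATMG01170 (-0.59 ± 0.42) and ATMG01370 (-0.22 ± 0.32) had negative values that were not called, and the median over the 9 genes was 0.79, beside 0.00 over all genes tested. ATMG00513 had too few counts for the fit, with 0 to 2 counts a library with [nS] and 4 to 15 with [dS], and was called as well where every gene with 10 counts was tested (2.62 ± 0.67, adjusted p = 0.0029, edgeR).

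**Figure D3:**
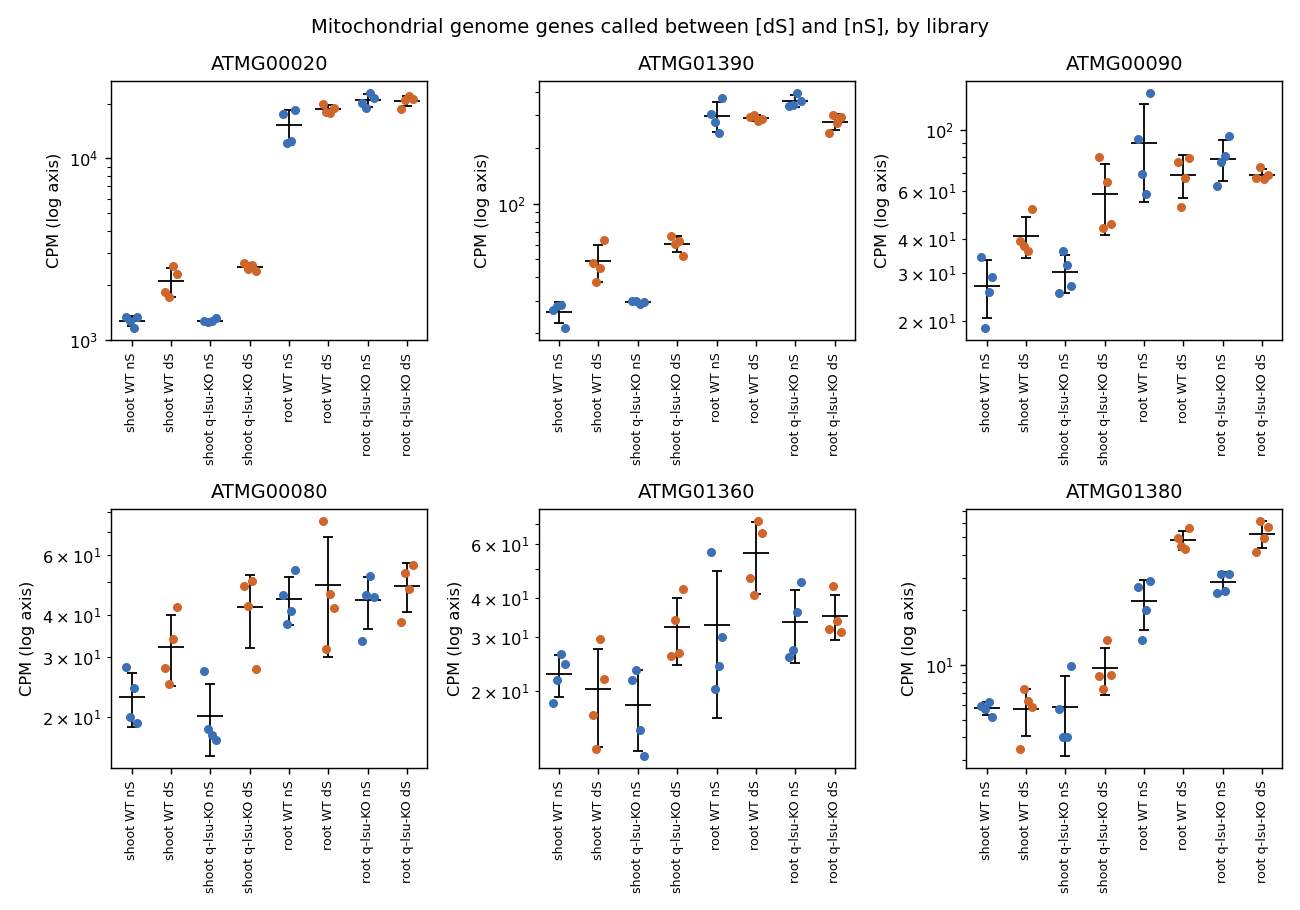
CPM (log axis) in each library of the 6 mitochondrial genome genes called between [dS] and [nS] in shoots or roots, by group. Points are libraries, blue for [nS] and orange for [dS], with mean ± SD (n = 4). In shoots ATMG00020 and ATMG01390 do not overlap between sulfur conditions, and in roots ATMG01380 does not.

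The number of genes called was larger in the mutant, but the difference between the genotypes was not called for any gene. In the test of the interaction of genotype and sulfur in shoots, where 0.425% of all genes tested were called, edgeR called 0 of 9 mitochondrial genes, DESeq2 called 0, and 1 had an unadjusted p under 0.05 (6.17% over all genes tested). That gene was ATMG01360, whose change with [dS] was -0.20 ± 0.23 in WT and 0.79 ± 0.24 in q-lsu-KO, a difference of 0.98 ± 0.33 (adjusted p = 0.46, edgeR). Without replicate 3 of the WT shoots with [dS] the difference was 1.25 and was called (adjusted p = 0.039, edgeR). For ATMG00020 the difference was 0.26 ± 0.14 and for ATMG01390 0.13 ± 0.21.

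In roots the response to [dS] rested on another gene. In WT roots ATMG01380 was the 1 gene of 13 that rose, and none fell, where 3.41% of all genes tested rose and 3.42% fell. It was at 26.6, 13.7, 20.1 and 28.9 CPM with [nS] and at 49.6, 44.6, 43.4 and 56.2 CPM with [dS], with every [dS] library above every [nS] library. The rise was 1.18 ± 0.16 (adjusted p = 2.6e-08, edgeR). In q-lsu-KO roots it was again the 1 gene of 13 that rose, where 2.77% of all genes tested rose and 3.38% fell: 24.6, 31.6, 25.5 and 31.5 CPM with [nS] and 41.5, 61.8, 49.3 and 56.8 CPM with [dS]. The rise was 0.81 ± 0.17 (adjusted p = 3.0e-04, edgeR), and none fell. In shoots ATMG01380 lay between 3.4 and 13.7 CPM, with changes of -0.07 ± 0.31 in WT and 0.59 ± 0.32 in q-lsu-KO that were not called.

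The genes that rose in shoots were not called in roots by edgeR with all libraries. ATMG00020 in WT roots was at 17522, 12203, 12471 and 18523 CPM with [nS] and at 20023, 17945, 17821 and 19028 CPM with [dS], an overlapping spread with a change of 0.29 ± 0.13 (adjusted p = 0.18, edgeR). In q-lsu-KO roots it was at 20149, 18893, 22977 and 21643 CPM with [nS] and at 18779, 20944, 21938 and 21206 CPM with [dS], and the change was -0.05 ± 0.13. ATMG01390 was at 306, 274, 241 and 370 CPM in WT roots with [nS] and at 295, 302, 279 and 286 CPM with [dS], a change of -0.02 ± 0.09. In q-lsu-KO roots ATMG01390 was at 338, 339, 397 and 360 CPM with [nS] and at 239, 303, 273 and 294 CPM with [dS], without overlap. Its change of -0.41 ± 0.10 passed the adjusted p (0.0033, edgeR) but not the fold threshold. ATMG01360 had the largest root change of the genes that rose in shoots. It was at 56.6, 20.3, 24.1 and 29.9 CPM in WT roots with [nS] and at 46.5, 41.1, 71.8 and 65.2 CPM with [dS], and replicate 1 with [nS] lay among the [dS] libraries. Its change was 0.88 ± 0.28 (adjusted p = 0.059, edgeR), and it was called without replicate 1 of the WT roots with [nS] (1.22, adjusted p = 6.1e-06), without replicate 2 with [dS] (1.01, adjusted p = 0.034) and with the counts thinned to the smallest library (0.89, adjusted p = 0.0098). In q-lsu-KO roots its change was -0.02 ± 0.34. The median over the 13 genes was 0.30 in WT and 0.06 in q-lsu-KO, beside 0.01 in both over all genes tested.

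**Figure D4:**
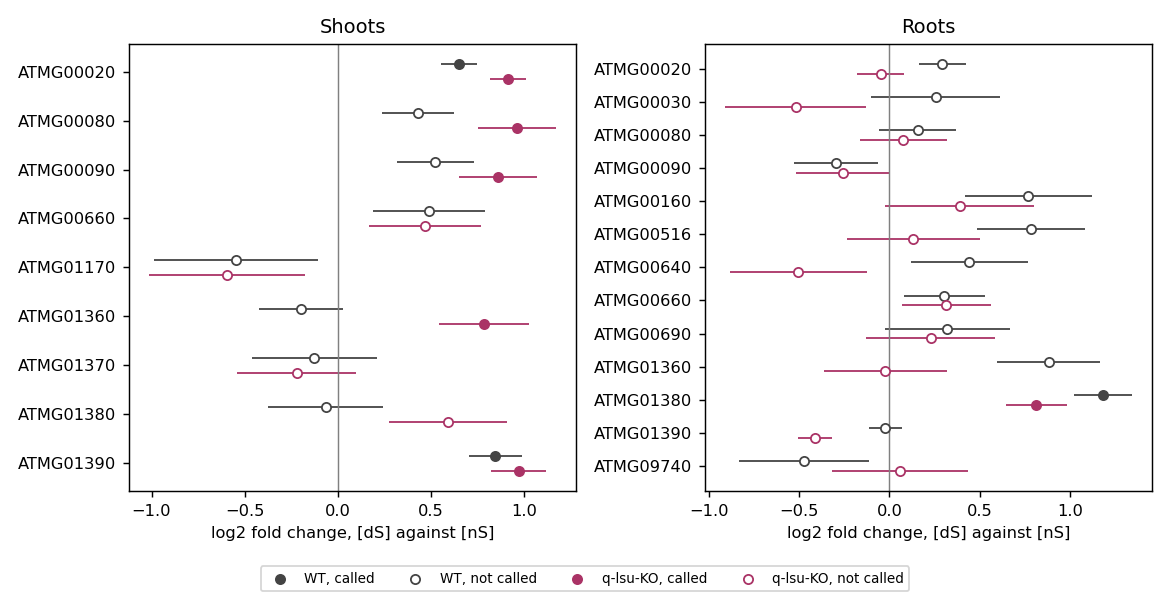
Log2 fold change of [dS] against [nS] with its standard error for the 9 mitochondrial genome genes tested in shoots (left) and the 13 tested in roots (right), WT in grey and q-lsu-KO in purple. Filled points passed the test: 2 and 5 genes in shoots, and ATMG01380 in roots of both genotypes.

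The difference of the sulfur response between tissues was tested in the fit of all 32 libraries. In WT 2 of 15 genes were called, where 6.51% of all genes tested were called. The change of ATMG01380 was higher in roots than in shoots by 1.23 ± 0.36 (adjusted p = 0.017, edgeR), and that of ATMG01390 was lower in roots (-0.88 ± 0.18, adjusted p = 4.3e-04, edgeR). In q-lsu-KO 3 of 15 genes were called, where 7.70% of all genes tested were. The change was lower in roots than in shoots for all 3: ATMG00020 (-0.98 ± 0.15), ATMG01390 (-1.40 ± 0.18) and ATMG00090 (-1.13 ± 0.35). For ATMG01390 the change in q-lsu-KO roots was itself negative (-0.41 ± 0.10 in the root fit). The call of ATMG00090 was lost in 15 of 25 other settings, and that of ATMG01380 in WT with counts thinned to the smallest library (0.91, adjusted p = 0.42, edgeR). For ATMG00020 in WT the difference was -0.37 ± 0.15 and was not called (adjusted p = 0.14, edgeR).

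Between genotypes no mitochondrial gene was called by edgeR or DESeq2 in either tissue or sulfur condition. In shoots with [nS], where 4.82% of all genes tested were called, 0 of 9 mitochondrial genes had an unadjusted p under 0.05 (18.8% over all genes tested), and the difference of ATMG00020 was 0.02 ± 0.10. In shoots with [dS], where 4.17% of all genes tested were called, 6 of 9 had an unadjusted p under 0.05 (17.6% over all genes tested) and all 9 values were positive, with a median of 0.51 beside -0.02 over all genes tested. The largest value was that of ATMG01360, 0.69 ± 0.21 (adjusted p = 0.054, edgeR). It passed the threshold with a replicate block (0.72, adjusted p = 0.044), without replicate 3 of the WT shoots with [dS] (0.95, adjusted p = 0.0031) and without replicate 1 of the q-lsu-KO shoots with [dS] (0.80, adjusted p = 0.028). ATMG00090 passed it without replicate 4 of the WT shoots with [dS] (0.66, adjusted p = 0.029) and without replicate 2 of the q-lsu-KO shoots with [dS] (0.66, adjusted p = 0.041).

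In roots with [nS], where 0.163% of all genes tested were called, 3 of 13 mitochondrial genes had an unadjusted p under 0.05 (7.56% over all genes tested) and 12 of 13 values were positive, with a median of 0.21. ATMG00020 differed by 0.48 ± 0.13 (adjusted p = 0.29, edgeR), with all 4 q-lsu-KO libraries above all 4 WT libraries in CPM. In roots with [dS], where 0.157% of all genes tested were called, 2 of 13 had an unadjusted p under 0.05 (7.63% over all genes tested), and the median was -0.03. The interaction of genotype and sulfur in roots, where 0.0250% of all genes tested were called, gave 0 calls of 13 in edgeR and DESeq2 and 1 unadjusted p under 0.05 (6.09% over all genes tested). The 4 LSU genes lie in the nucleus, and genotype, unlike sulfur and tissue, was compared within a pool.

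Between roots and shoots the mitochondrial genes did not move as a block. With [nS] in WT, 9 of 15 were higher in roots and 2 lower, where 31.3% of all genes tested were higher and 27.9% lower. With [dS] in WT the counts were 9 and 1 (30.6% and 28.6%). In q-lsu-KO they were 7 and 2 with [nS] (30.3% and 28.4%) and 5 and 3 with [dS] (29.3% and 29.0%). A row could enter this fit by its counts in 1 tissue alone. ATMG00030, ATMG00516, ATMG00640 and ATMG00690, all called higher in roots in WT with [nS], entered through roots. Their means were 0.69 to 1.92 CPM in WT shoots with [nS]. For such rows the filter favours a call higher in roots, and the reverse for a row that entered through shoots, so these counts are descriptions only. In these fits the library factors were between 0.736 and 0.820 in shoots and between 1.25 and 1.32 in roots, and the median over all genes was 0.10, 0.08, 0.09 and 0.05 in the 4 comparisons. In plain CPM, with no factor, that median was 0.81, 0.75, 0.82 and 0.78. A fitted value is thus a difference relative to most other genes and lies below the CPM ratio.

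With [nS], ATMG00020 and ATMG01390 had the highest fitted differences in both genotypes. With [dS], ATMG00516 had a higher value than both in WT, and ATMG01380 lay above ATMG01390 in both genotypes. The fitted difference of ATMG00020 was 2.84 ± 0.12 in WT with [nS] and 2.47 ± 0.11 with [dS], and 3.28 ± 0.12 and 2.30 ± 0.11 in q-lsu-KO. In CPM this is a ratio of roots to shoots of 11.9, 8.88, 16.4 and 8.21. For ATMG01390 the fitted difference was 2.77 ± 0.13 and 1.89 ± 0.11 in WT and 2.85 ± 0.13 and 1.45 ± 0.11 in q-lsu-KO, with CPM ratios of 11.4, 5.95, 12.2 and 4.56. ATMG01380 was higher in roots in all 4 comparisons, with fitted values from 1.16 ± 0.26 to 2.38 ± 0.20. ATMG00516 was higher in all 4 as well, from 1.06 ± 0.43 to 2.71 ± 0.42, though it had at most 5 counts in any shoot library.

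ATMG00030 and ATMG00640 were higher in roots in 3 of the 4 comparisons, ATMG00090, ATMG00660 and ATMG00690 in 2, and ATMG00160 in 1. ATMG00080 and ATMG09740 were called in none. Of the 30 differences called higher in roots, 29 showed no overlap of the groups in CPM. Plain CPM carries the shift toward roots of most genes, which favours such separation. Entry through roots, as for ATMG00030, ATMG00516, ATMG00640 and ATMG00690, favours it too. The same share over all genes was not computed, so this count is a description only.

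ATMG01170 was called lower in roots in all 4 comparisons and ATMG01370 in 3, but both rest on few counts and on the scaling. Both were tested in the shoot fit, and they held 129 and 160 counts in shoots against 56 and 107 in roots. Entry into the fit through shoots would favour these calls, so they are descriptions only. ATMG01170 had between 2 and 14 counts in a library, and its mean was 4.05 CPM in shoots and 2.33 CPM in roots in WT with [nS], and 6.56 and 2.90 CPM in q-lsu-KO with [nS]. ATMG01370 had a mean of 4.40 CPM in shoots and 3.77 CPM in roots in WT with [nS]. Of the 8 differences called lower in roots, 2 showed no overlap of the groups in CPM, those of ATMG01170 and ATMG01370 in q-lsu-KO with [nS]. Here the shift of most genes in CPM works against separation, while entry through shoots would favour it. The same share over all genes was not computed here either. ATMG01360 was higher in roots in WT with [dS] (0.77 ± 0.26) and lower in q-lsu-KO with [dS] (-0.64 ± 0.28), where the direction turned in CPM (a CPM ratio of roots to shoots of 1.09).

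**Figure D5:**
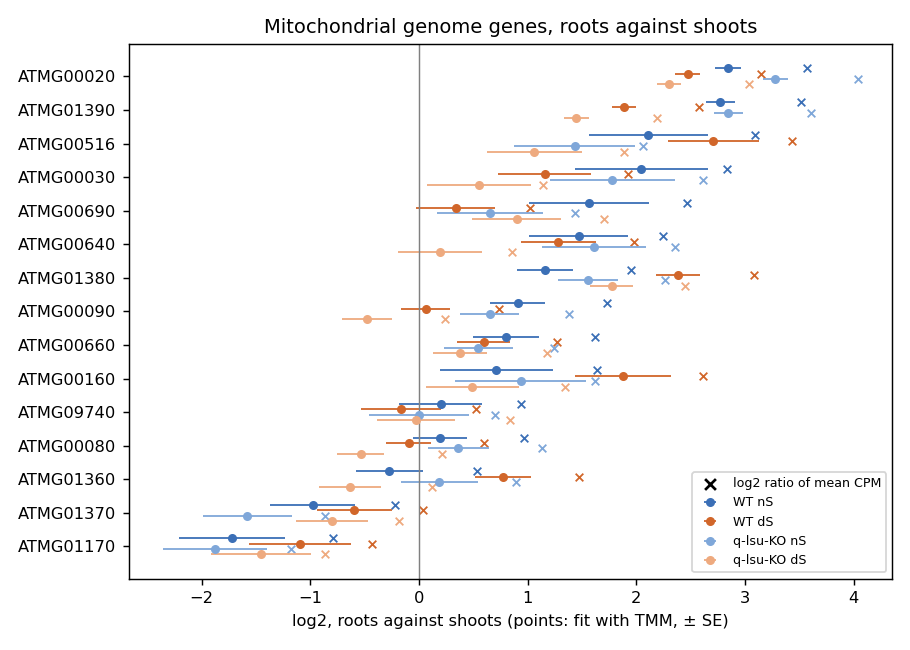
Differences between roots and shoots on the log2 scale for the 15 mitochondrial genome genes tested, in 4 comparisons. Points are values of the edgeR fit ± SE and crosses are log2 ratios of mean CPM, which lie to the right of the fitted values, and ATMG00020 and ATMG01390 are the genes with the highest values in WT with [nS].

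The difference of the genotype effect between the tissues was called for 0 of 15 genes by edgeR with either sulfur supply, where 1.89% of all genes tested were called with [nS] and 1.73% with [dS]. With [nS] 1 of the 15 had an unadjusted p under 0.05 and with [dS] 5 had (11.0% and 11.3% over all genes tested), and DESeq2 called 0 and 1. The gene called by DESeq2 was ATMG01360, at -1.41 ± 0.38 in edgeR (adjusted p = 0.056).

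Most subunits of the respiratory chain are encoded in the nucleus, and 3 lists of nuclear genes of mitochondrial function were set beside the mitochondrial rows. Of 42 nuclear genes for subunits of the respiratory chain and ATP synthase, all tested, 0 were called by edgeR between [dS] and [nS] in either genotype and tissue, and their medians lay between -0.06 and -0.03. At an unadjusted p under 0.05, 16 of the 42 passed in shoots of each genotype, 12 in WT roots and 11 in q-lsu-KO roots, and DESeq2 called 0 in each. Over all genes tested that share was 33.4% in WT shoots, 32.5% in q-lsu-KO shoots, 25.1% in WT roots and 22.9% in q-lsu-KO roots, so the counts of the list lay near it. Between tissues 26 of the 42 were higher in roots in WT with [nS] and 0 lower, where 31.3% of all genes tested were higher and 27.9% lower. The call with the smallest adjusted p was CYTC-1 (AT1G22840), a cytochrome c, the mobile electron carrier, at 1.54 ± 0.08 (adjusted p = 1.5e-27, edgeR), followed by AT1G51650 at 1.18 ± 0.07. The median of the 42 was 0.70, beside 0.10 over all genes and 0.91 over the 15 mitochondrial genes, some of which entered the fit only through roots.

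Of 12 nuclear genes for mitochondrial RNA polymerases and factors of RNA turnover, editing and splicing, 10 were tested in shoots and 11 in roots. In WT shoots, WT roots and q-lsu-KO roots edgeR and DESeq2 both called 0 genes of this list between [dS] and [nS], while 3 of 10, 5 of 11 and 5 of 11 had an unadjusted p under 0.05, beside 33.4%, 25.1% and 22.9% of all genes tested. In q-lsu-KO shoots 1 of 10 fell with [dS], where 5.44% of all genes tested fell. This was EMB2730 (AT5G02250), an exoribonuclease of the RNase II family, at -0.65 ± 0.21 (adjusted p = 0.021, edgeR), a gene that DESeq2 did not call (adjusted p = 0.062). AT5G46920 was lower in q-lsu-KO than in WT in shoots with [nS] (-1.04 ± 0.29, adjusted p = 0.021, edgeR), and DESeq2 did not call it (adjusted p = 0.055). Between roots and shoots of WT with [nS], 2 of 11 were higher in roots and 1 lower, where 31.3% of all genes tested were higher and 27.9% lower. The counts were 5 and 1 in WT with [dS] (30.6% and 28.6% over all genes tested). In q-lsu-KO they were 4 and 1 with [nS] (30.3% and 28.4%) and 6 and 1 with [dS] (29.3% and 29.0%).

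The list of alternative respiration and mitochondrial stress genes holds 19 genes, 9 tested in shoots and 14 in roots. In shoots 1 of 9 rose with [dS] in WT and 2 of 9 in q-lsu-KO, where 6.18% and 6.62% of all genes tested were higher. BCS1 (AT3G50930), an AAA-type ATPase of the mitochondrial membrane, rose by 2.34 ± 0.43 and 2.74 ± 0.36 (adjusted p = 5.3e-04 and 2.2e-05, edgeR), and NDB2 (AT4G05020), an external alternative NADH dehydrogenase, rose in q-lsu-KO by 0.95 ± 0.36 (adjusted p = 0.049, edgeR). DESeq2 did not call NDB2 (adjusted p = 0.094). BCS1 also differed between the genotypes in shoots with [dS], where the mutant was higher (1.22 ± 0.26, adjusted p = 0.0077, edgeR).

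With [dS], WT roots had 5 of the 14 genes higher and 2 lower, and q-lsu-KO roots had 6 higher and 1 lower. Over all genes tested 3.41% were higher and 3.42% lower in WT roots, and 2.77% and 3.38% in q-lsu-KO roots. AT2G21640 rose by 1.63 ± 0.11 and 2.28 ± 0.13, and AT5G09570 by 2.16 ± 0.17 and 3.55 ± 0.29. AT2G41730 rose by 0.88 ± 0.09 and 1.05 ± 0.10. UGT74E2 (AT1G05680), a glucosyltransferase of an auxin precursor, fell, at -1.24 ± 0.12 in WT and -0.93 ± 0.14 in q-lsu-KO. AOX1A (AT3G22370), the main alternative oxidase, named here after its values were seen, was not called in any of the 4 sulfur comparisons, with values between 0.08 and 0.39. AT2G21640 and AT5G09570 were lower in q-lsu-KO than in WT in roots with [nS], at -0.73 ± 0.15 (adjusted p = 0.0082, edgeR) and -1.96 ± 0.36 (adjusted p = 0.0020, edgeR).

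Genes of the plastid genome gave a comparison with another organelle. In WT shoots 8 of 81 tested were higher with [dS] and 4 lower, with a median of 0.03, and in q-lsu-KO shoots 25 were higher and 4 lower, with a median of 0.41. Over all genes tested 6.18% were higher and 5.24% lower in WT shoots, near the plastid counts, and 6.62% and 5.44% in q-lsu-KO shoots. In WT roots 11 of 48 were higher and 1 lower, and in q-lsu-KO roots 6 were higher and 1 lower, beside 3.41% and 3.42% and 2.77% and 3.38% of all genes tested. Of the 150 rows in the stretch of chromosome 2 that carries the mitochondrial copy, 2 had enough counts to be tested and neither was called by edgeR or DESeq2, or had an unadjusted p under 0.05, in any comparison within or between the tissues. These were AT2G07690 and AT2G07680, with 858 and 444 counts over all libraries, and no note names either as the partner of a mitochondrial row. The result thus does not cover the partner rows.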

How the data were processed

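RNA was measured by 3′RNA-seq with barcoded oligo(dT) primers in 32 libraries. Per the submitters' notes, reads were aligned with STAR 2.7.8a to TAIR10. The deposited files hold raw counts per gene. The counting program and the treatment of strand, of molecular identifiers and of reads with several alignments are not stated in any source used here, and they could change counts of rows that share sequence. The deposited annotation IDs were matched to RefSeq TAIR10.1 (37051 of 37336, none of the 152 ATMG rows).

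Counts were tested with edgeR 4.0.16 (quasi-likelihood F-test, limma 3.58.1, R 4.3.3) after filterByExpr with a minimum count of 10 and TMM factors, over 14593 genes in 16 shoot libraries, 15971 in 16 root libraries and 17918 in 32 libraries. The standard error is the fold change divided by the square root of F. Tests of sulfur or genotype by tissue, and the CPM ratios of tissues, were added after the data were seen. Named genes were every mitochondrial row called, the 12 with most counts in each tissue, those next to the minimum, and up to 4 called genes of each nuclear list and comparison. Members and lists were chosen with earlier results of these data known. On simulated counts with 200 changed genes the shoot fit of WT [dS] against [nS] recovered 183 with 4 false calls. The changed genes had over 200 counts, changes well above the 1.5-fold threshold and a spread shared by all genes. Rarer rows and smaller changes are thus not covered by it.

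Alternatives were DESeq2 1.42.0, other factors and filters, nuclear library sizes, a replicate block, 8 libraries alone, adjusted p alone, thinning and leaving out each library. No column of authors' comparisons was present. Intervals for counting error were not computed, since every group has 4 replicates. Values of single libraries for rows with few counts still carry counting error.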

Additional observations from a re-analysis of the deposited data

Results flagged for a closer look

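Of 120 groups of 4 libraries checked for a library far from the other 3, 4 held one, fewer than the 1 in 20 that chance gives. ATMG00080 was at 27.4 CPM in replicate 1 of the q-lsu-KO shoots with [nS], against 17.2 to 18.5 CPM in the others. ATMG00660 was at 30.9 CPM in replicate 2 of the q-lsu-KO roots with [dS], against 16.6 to 18.7 CPM. ATMG01170 was at 4.67 CPM in replicate 4 of the WT roots with [nS], against 1.21 to 1.79 CPM, and ATMG01370 at 6.24 CPM in replicate 4 of the WT roots with [dS], against 3.72 to 4.11 CPM.

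The change with [dS] differed between roots and shoots for 5 pairs of gene and genotype. In WT the difference, roots minus shoots on the log2 scale, was 1.23 for ATMG01380 and -0.88 for ATMG01390. In q-lsu-KO it was -0.98 for ATMG00020, -1.13 for ATMG00090 and -1.40 for ATMG01390. Tissue and sulfur condition each cannot be told apart from the sequencing pool.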

How the results depend on the processing

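The 52 changes of single genes that passed the test were followed over 925 other settings in all. In 846 the call was kept, in 79 it was lost and in 0 the change turned in direction. Adjusted p alone dropped the fold threshold on the same fit, so no call could be lost there. Settings whose filter left a gene out were not counted. The calls of 35 of the 52 were never lost where the gene was tested.

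The counts of mitochondrial genes called moved by over 1.5 times as follows. With a replicate block, 1 gene was called between genotypes in shoots with [dS], against 0. Same-numbered libraries correlated at 0.007 to 0.252 in the sulfur comparisons within a tissue, all positive, beside -0.293 to 0.170 for other numbers. In the genotype comparisons they correlated at -0.100 to 0.038, beside -0.131 to 0.129. A weak pairing across sulfur conditions is thus possible. What the numbers mark is not stated, and the main fit did not take them as pairs. The block moved no other count by over 1.5 times. With thinned counts, 2 were called in WT roots for sulfur, against 1, and 5, 6, 5 and 4 between tissues (WT [nS], WT [dS], q-lsu-KO [nS], q-lsu-KO [dS]), against 11, 10, 9 and 8, where 8 genes were tested in place of 15. With a mean of at least 5 CPM as the filter the counts between tissues were 7 in WT with [nS], 6 in WT with [dS] and 4 in q-lsu-KO with [dS], with 10 genes tested. With only the 8 libraries compared they were 4 in WT and 4 in q-lsu-KO with [nS], and 1 gene was called between genotypes in roots with [dS], against 0. With adjusted p alone, 2 were called in q-lsu-KO roots for sulfur, against 1. DESeq2 called 5 between tissues in q-lsu-KO with [dS], against 8, and 1 for genotype by tissue with [dS], against 0, as did thinning. Where no construction shows it, the cause was not tested.

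Leaving out 1 library gave 1 to 3 calls for sulfur in WT shoots, 0 to 1 for genotype in shoots with [dS], 0 to 1 for the interaction in shoots, 1 to 2 for sulfur in WT roots, 5 to 7 between tissues in q-lsu-KO with [dS] and 0 to 1 for genotype by tissue with [dS]. The library behind the low end in WT shoots was replicate 3 with [dS].

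Without the 2 top rows the mean mitochondrial share was 0.0113% and 0.0143% in WT shoots with [nS] and [dS], 0.0119% and 0.0207% in q-lsu-KO shoots, 0.0275% and 0.0326% in WT roots and 0.0284% and 0.0304% in q-lsu-KO roots. As a percentage of nuclear counts it was 0.150% and 0.296% in q-lsu-KO shoots.

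Depth limits the rarer rows: ATMG01170 had 2 to 14 counts in a library and ATMG01370 2 to 18.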
